A study of Mus musculus with 18 samples.

Results

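The transcripts considered are those of 10 genes of insulin signalling and the fasting response, namely Insr, Irs1, Irs2, Foxo1, Foxo3, Igfbp1, Igfbp2, Igfbp4, Pdk4 and Sesn1. They were chosen by symbol, as genes of the insulin pathway or genes whose liver level follows feeding. They are 10 of the 52230 genes that the deposited transcripts were summed to, and all 10 are among the 10938 genes that passed the filter of at least 10 counts in at least 4 libraries. The data were RNA-sequencing libraries of whole liver, 1 per mouse, from a line in which a proline of GKRP, the product of Gckr, is exchanged for a leucine. GKRP is a regulatory protein of the hepatocyte nucleus. The study compared livers of the proline (PP) and the leucine (LL) form in each sex, and the 10 genes are read here by genotype, by sex and mouse by mouse.

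Insulin binds its receptor (INSR), a tyrosine kinase, which phosphorylates the docking proteins IRS1 and IRS2 and through them activates phosphatidylinositol 3-kinase and AKT. AKT phosphorylates the transcription factors FOXO1 and FOXO3 and so keeps them out of the nucleus. In the fasted liver, when insulin is low, FOXO proteins are nuclear and raise genes such as Igfbp1 and Irs2, and fatty acids acting through PPARα together with FOXO raise Pdk4.

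There were 4 PP and 4 LL males and 5 PP and 5 LL females, all of the line GCKR-P446L-EMI-B6N, all kept on standard chow with free access to food. PP mice carry the unedited 446P form on both copies, and LL mice carry the 446L form. Ages of 9 to 14 weeks are stated per mouse, while the series text puts harvest at 14 weeks. The male LL mice were 13 or 14 weeks old, and every other group spanned 9 to 14 or 11 to 14 weeks. The hour of harvest and the time since the last meal are not given in the sources used here. Total estimated counts per library were 3794671 to 6613905. Normalized counts are these counts, summed per gene and divided by the size factor of the library, and errors after a log2 fold change are standard errors. Gene coordinates are those of GENCODE M39 on build GRCm39. Xist was at 2006 to 3784 normalized counts in females and at most 5.10 in males, and Eif2s3y at 138 to 238 in males and 0 in females, which matched the labelled sex of all 18. The 7 hepatocyte markers found in the tables summed to 421997 to 531739 normalized counts in male PP and 509562 to 615715 in male LL mice. In females they summed to 737552 to 838070 in PP and 620688 to 751216 in LL mice, so the sexes did not overlap within a genotype. Most of this sum was Alb, with a mean of 348169 of 465498 in male PP and 666570 of 778489 in female PP mice. In LL mice the mean of Alb was 450430 of 570137 in males and 566181 of 669739 in females. The list's median log2 fold change of females over males was -0.11 over both genotypes. The hepatocyte sum therefore mainly follows Alb and does not measure an amount of hepatocytes. In all libraries 3 of 8 pancreas markers (Ins1, Ins2 and Ctrb1) and 3 of 7 adipocyte markers (Adipoq, Lep and Retn) were at 0. The whole adipocyte list summed to 8079.9 to 13135 in male PP and 5641 to 15163 in male LL mice. In females it summed to 5011 to 9002 in PP and 9931 to 14154 in LL mice, which did not overlap. Only 2 of its 7 genes passed the filter, so this sum rests on few genes and does not measure an amount of adipocytes. The whole pancreas list summed to 27.5 to 111 over all libraries. The part of other cells in the members' differences was not tested. Gckr had a mean of 518 normalized counts in PP males against 478 in LL males and 611 in PP females against 592 in LL females, and this count does not show the exchanged codon.

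No member passed the threshold by LL genotype in either sex, and 3 of the 10, Irs1, Irs2 and Pdk4, were higher in females than in males when the sex difference was averaged over both genotypes. A gene was called when its adjusted P was below 0.05 and its fold change at least 1.3 or at most 0.7 (DESeq2, Benjamini-Hochberg over 10938 genes). By LL genotype 0 of 10 members were called in males, where 0.274% of all tested genes were called, and 0 of 10 in females, where 0.558% were. At an unadjusted p under 0.05 there was 1 member in males (Pdk4), against 7.81% of all genes, and 2 in females (Pdk4 and Igfbp4), against 13.0% of all genes. edgeR's quasi-likelihood test and limma called 0 members in either. Averaged over both sexes, 0 of 10 members were called by genotype, against 0.887% of all genes, and 1 member, Pdk4, had an unadjusted p under 0.05, against 13.8%. Between the sexes 0 of 10 members were called in PP mice, against 6.45% of all genes, with 3 members and 17.5% of genes at an unadjusted p under 0.05. In LL mice the counts were 0 of 10 members against 6.12% of all genes, with 2 members and 20.0% at an unadjusted p under 0.05. Averaged over both genotypes the sex difference was called for 3 of 10 members against 10.7% of all genes, so that 1166 genes passed the same threshold. edgeR called 2 of the 3, Irs1 and Irs2, against 9.76% of all genes, and by genotype over both sexes 0 members against 0.0823%. This averaged comparison, like that of genotype over both sexes, was added after the separate comparisons had been seen. For the interaction of genotype with sex, 0 of 10 members passed an adjusted P of 0.05, against 0.0731% of all genes, and 0 members against 5.67% of genes had an unadjusted p under 0.05.

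**Figure D1:**
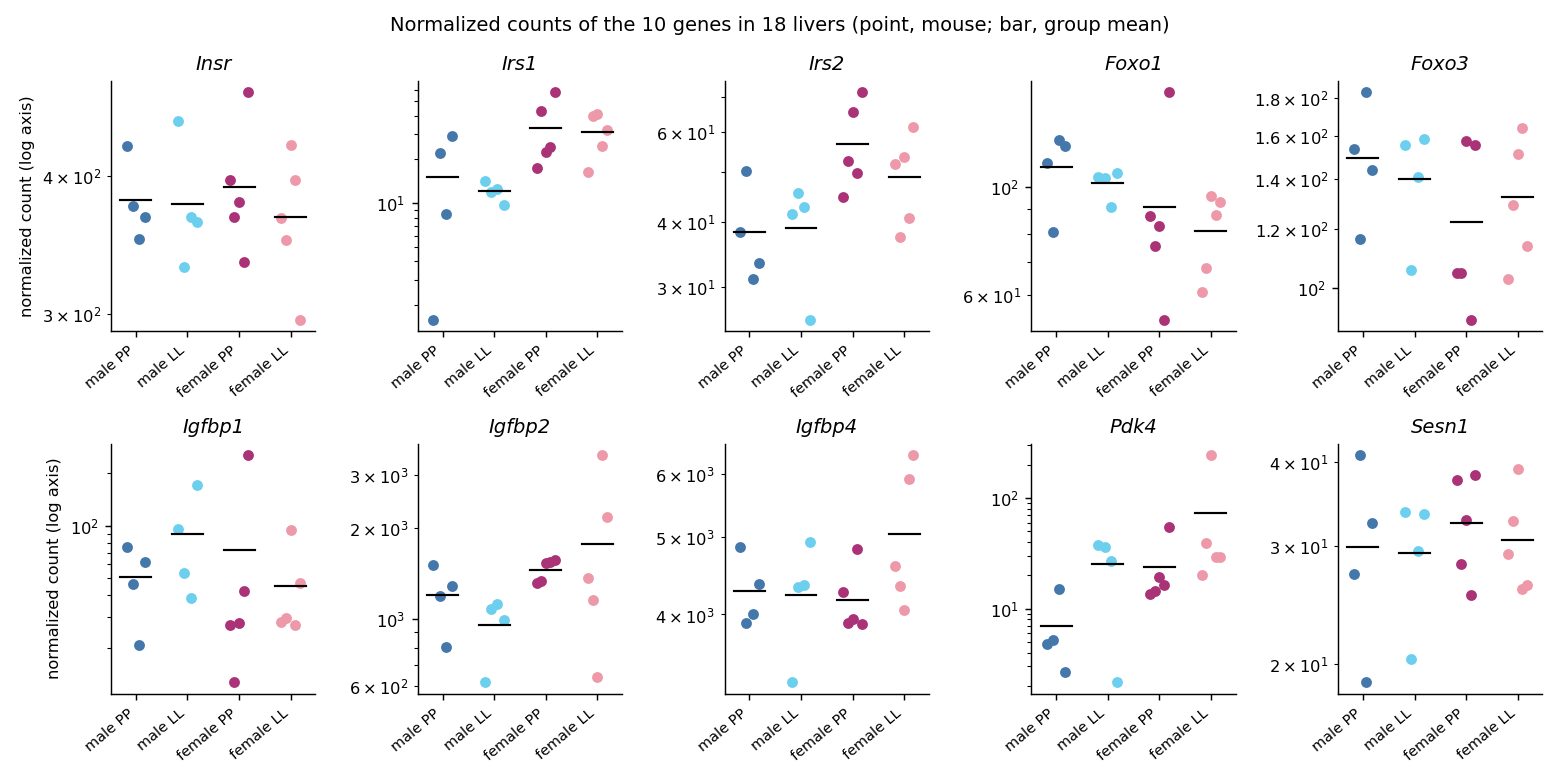
Normalized counts of the 10 genes (logarithmic vertical axis, 1 panel a gene) in the 4 groups, with 1 point a mouse and a bar at the group mean. Irs1 in all 5 female LL mice lies above the 4 male LL mice, and Pdk4 and Igfbp1 each show a single mouse far above the others of its group.

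The median log2 fold change of the 10 members by LL genotype was -0.02 in males and -0.08 in females, against 0.00 and 0.01 over all tested genes. The members' median size of change, disregarding sign, was 0.10 in males and 0.19 in females, against 0.19 and 0.20 over all genes. Between females and males it was 0.28 in PP and 0.33 in LL mice, against 0.21 and 0.25. In whole liver a lower count can reflect fewer cells of a type or less RNA per cell, and these cannot be told apart.

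**Figure D2:**
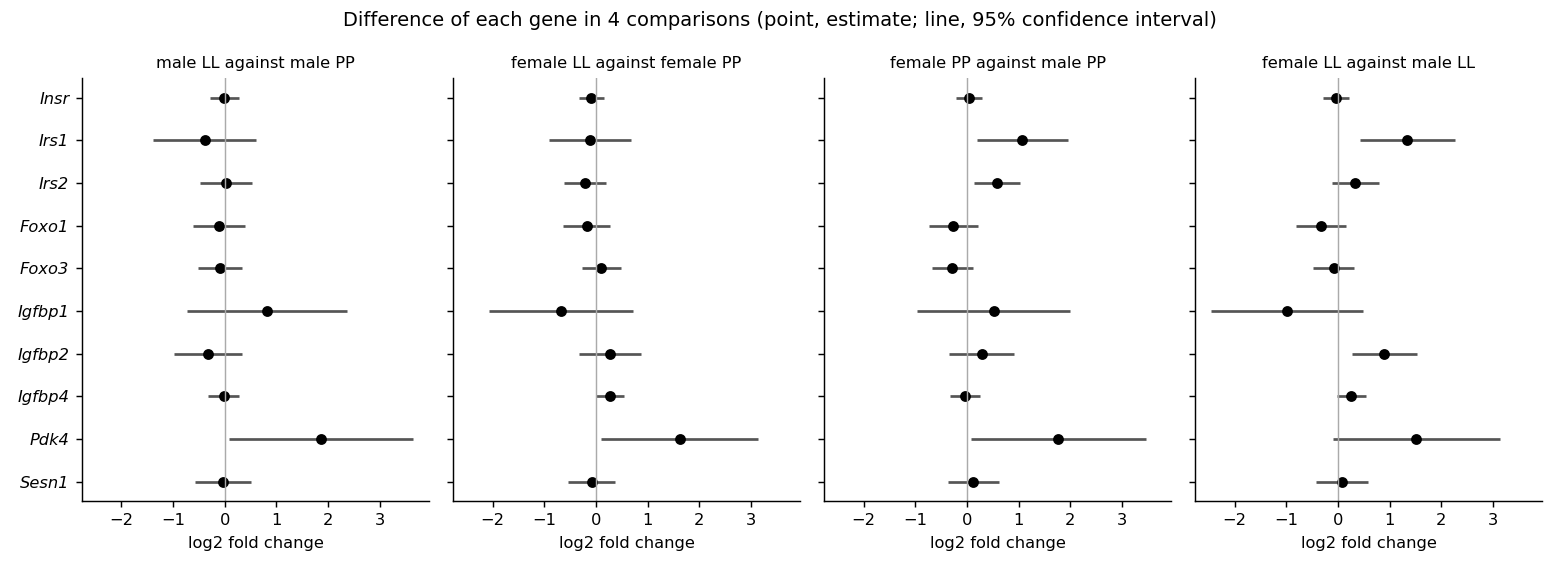
Log2 fold change of each gene (horizontal axis) with its 95% confidence interval for the genotype difference in each sex and the sex difference in each genotype, 1 panel each. Pdk4 has a point estimate between 1.51 and 1.87 in all 4 panels with wide intervals, of which 2 fall to 0.31 (genotype in females) and 0.22 (sex in LL mice) without female LL 3, and Insr and Sesn1 stay within 0.13 of 0 in all 4.

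The promoter windows of Igfbp1, Irs1 and Irs2 are shown because Igfbp1 is the usual readout of insulin action on FOXO and Irs1 and Irs2 are 2 of the 3 members that differed by sex, and because all 3 windows hold the letters CAAAACA, the core of the insulin response element described for Igfbp1. The windows are RefSeq's on build GRCm38.p6, 250 bases before to 50 after a start, written 5′ to 3′ on the strand of the gene, with CAAAACA or its reverse complement TGTTTTG in capitals. They lie at chr11:7197537-7197836 (plus strand, Igfbp1), chr1:82291390-82291689 (minus strand, Irs1) and chr8:11008880-11009179 (minus strand, Irs2).
Igfbp1: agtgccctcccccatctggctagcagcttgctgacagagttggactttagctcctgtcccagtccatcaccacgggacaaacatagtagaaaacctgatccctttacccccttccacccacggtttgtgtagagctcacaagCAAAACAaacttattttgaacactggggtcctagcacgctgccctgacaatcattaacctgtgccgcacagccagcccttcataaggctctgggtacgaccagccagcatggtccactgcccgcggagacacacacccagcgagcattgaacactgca
Irs1: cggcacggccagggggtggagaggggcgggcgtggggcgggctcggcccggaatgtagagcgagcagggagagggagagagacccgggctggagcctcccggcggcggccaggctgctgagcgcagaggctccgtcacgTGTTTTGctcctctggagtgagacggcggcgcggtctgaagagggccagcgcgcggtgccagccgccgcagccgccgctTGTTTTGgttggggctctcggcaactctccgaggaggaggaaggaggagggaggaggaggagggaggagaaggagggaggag
Irs2: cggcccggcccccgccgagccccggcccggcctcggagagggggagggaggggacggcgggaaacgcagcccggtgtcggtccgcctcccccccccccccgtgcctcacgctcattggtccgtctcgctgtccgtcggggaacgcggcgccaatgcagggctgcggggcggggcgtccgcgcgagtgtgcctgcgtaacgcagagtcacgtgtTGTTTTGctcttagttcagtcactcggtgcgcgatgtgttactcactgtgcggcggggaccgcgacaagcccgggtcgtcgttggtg

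In Igfbp1 the letters run on the gene's strand from 108 to 102 bases before the start. In Irs1 they run on the other strand at 111 to 105 and again at 32 to 26 bases before it, and in Irs2 on the other strand at 37 to 31 bases before it. CAAAACA stood on either strand in 6.28% of the 32851 windows of RefSeq's table. Among the members it stood only in these 3 windows, which were chosen in part for holding it. The window of Pdk4, the other member that differed by sex, did not hold it. A link of these letters to the sex difference was not tested. GTAAACA, the forkhead word, stood in 3.65% of windows, among the members in 1 window of Sesn1. The direct repeat read by PPARα (0.0396% of windows) and the glucocorticoid receptor palindrome (0.00913%) were in no window of a member. The 4 patterns were searched on both strands, and none is contained in another. Windows were found for 9 of the 10 members, with 2 each for Igfbp2 and Sesn1, and not for Insr.

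Levels between genes were compared as TPM, which is scaled per length of transcript. Igfbp4 was the highest at 306 ± 84.3 TPM (SD, n = 18), followed by Igfbp2 at 243 ± 131 and, far below, Igfbp1 at 7.25 ± 7.61 and Insr at 6.09 ± 2.08. Foxo3 (2.73 ± 0.807), Sesn1 (1.67 ± 0.554), Pdk4 (1.55 ± 2.56), Foxo1 (1.43 ± 0.479) and Irs2 (1.05 ± 0.446) came next, and Irs1 was last at 0.378 ± 0.269 TPM. Igfbp2 exceeded Igfbp1, and Insr exceeded Foxo3, in all 18 libraries, as Irs2 exceeded Irs1. Igfbp1 exceeded Insr in only 8 of 18 libraries, so these neighbours in the order do not differ beyond their spread. Pdk4 exceeded Foxo1 in only 2 of 18, against the order of the means. By geometric mean Pdk4, at 0.726 TPM, stood below Foxo1 at 1.37 and Irs2 at 0.941. The mean of Pdk4 rests on female LL 3, at 11.4 TPM. Counted on protein-coding transcripts alone, Igfbp4 was at 178 TPM. The mean of 243 TPM for Igfbp2 counts all its transcripts, so it is not compared with that value.

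**Figure D3:**
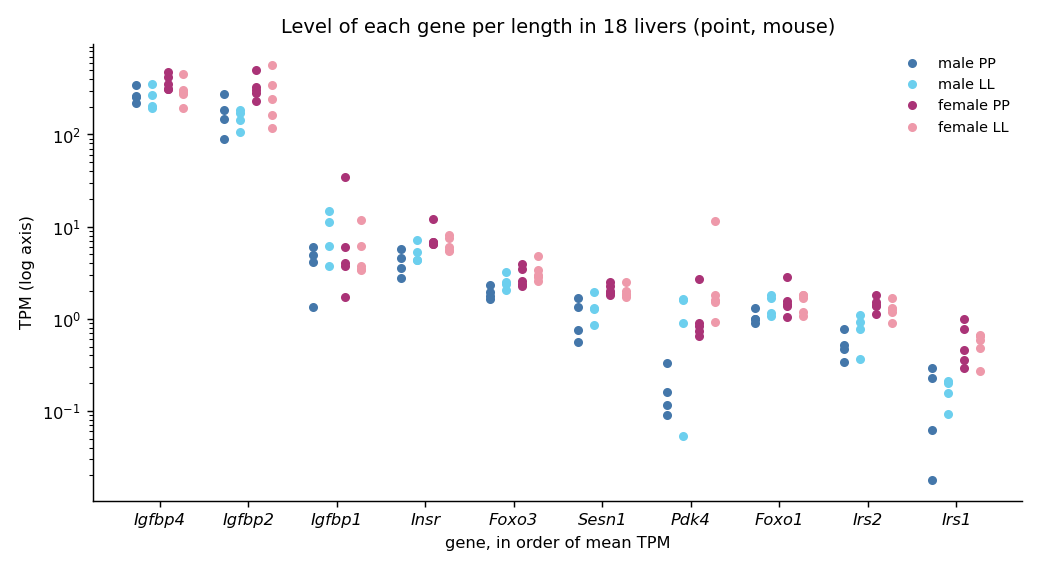
TPM of each gene (logarithmic vertical axis) in 18 mice, in order of the mean TPM over all mice, with 1 point a mouse coloured by group. Igfbp4 and Igfbp2 lie at 89.4 to 571 TPM, and the other 8 genes, apart from some mice for Igfbp1, Insr and Pdk4, below 10.

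Insr (ENSMUSG00000005534, chromosome 8, 3172061 to 3329647, minus strand), the receptor itself, was among the most even members within groups. In males the normalized counts were 426, 376, 351 and 367 in PP and 448, 331, 367 and 363 in LL mice. The females held 396, 367, 379, 334 and 475 in PP and 366, 349.7, 426, 396 and 297 in LL mice. The groups overlapped throughout, and the coefficient of variation within a group was 8.50% to 13.5%. Its log2 fold change was -0.01 ± 0.14 (adjusted P = 0.999) by LL genotype in males, -0.09 ± 0.12 (adjusted P = 0.827) in females, 0.04 ± 0.13 (adjusted P = 0.927) between females and males of PP genotype and -0.04 ± 0.13 (adjusted P = 0.921) in LL mice. The 95% confidence interval of the difference by LL genotype was -0.28 to 0.27 in males and -0.33 to 0.15 in females. On log2(TPM + 1) limma called Insr higher in female than in male PP mice (adjusted P = 0.0125), a comparison in which the median gene shifted by 0.50 on the TPM scale and 39.4% of all genes were called.

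Irs1 (ENSMUSG00000055980, chromosome 1, 82210822 to 82269338, minus strand) encodes the first of the docking proteins that pass the signal on from the receptor. In males the normalized counts were 1.60, 22.0, 8.46 and 28.8 in PP and 14.3, 12.0, 12.5 and 9.72 in LL mice. The females held 17.6, 42.7, 22.7, 24.5 and 57.6 in PP and 16.4, 39.5, 40.7, 24.7 and 31.7 in LL mice. All 5 female LL mice lay above all 4 male LL mice, the only such separation among the 10 members in any of the 4 comparisons of groups, in a comparison where 8.16% of all tested genes separated. The share of all genes that separated was 4.07% for genotype in males, 2.66% for genotype in females and 9.74% for sex in PP mice. The female PP mice overlapped with male PP mice, whose lowest library held 1.60 normalized counts. The difference was 1.34 ± 0.47 (unadjusted p = 0.00397, adjusted P = 0.0539) in LL mice and 1.07 ± 0.45 (unadjusted p = 0.0175, adjusted P = 0.15) in PP mice. Averaged over both genotypes it was 1.21 ± 0.32 (adjusted P = 0.00284). This call was made under all 27 alternatives, with a highest adjusted P of 0.0233. In LL mice alone, the adjusted P of Irs1 was 0.0269 to 0.0494 without female PP 1, female PP 5, male PP 1, male PP 3, male PP 4 or female LL 1, and 0.0583 to 0.127 without any other library. In PP mice alone Irs1 passed without male PP 4 (0.0307) and with age as a term (0.038), where 6.74% of all genes were called. By LL genotype Irs1 differed by -0.38 ± 0.51 (adjusted P = 0.945) in males and -0.11 ± 0.40 (adjusted P = 0.949) in females.

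Irs2 (ENSMUSG00000038894, chromosome 8, 11034681 to 11059499, minus strand) is the docking protein that FOXO raises when insulin is low. In males the normalized counts were 38.4, 50.4, 31.02 and 33.3 in PP and 41.5, 45.6, 42.8 and 25.9 in LL mice. The females held 44.7, 52.7, 65.5, 49.8 and 71.5 in PP and 51.9, 37.5, 53.7, 40.7 and 61.3 in LL mice. Most female values lay above most male ones, with overlap in both genotypes. The sex difference was 0.58 ± 0.23 (unadjusted p = 0.011, adjusted P = 0.111) in PP mice, 0.34 ± 0.23 (adjusted P = 0.438) in LL mice and 0.46 ± 0.16 (adjusted P = 0.0367) over both genotypes. The last call was lost without female PP 3, female PP 5, male PP 1, male PP 3, male PP 4, female LL 1, female LL 3, female LL 5, male LL 1 or male LL 4, each with an adjusted P for Irs2 of 0.051 to 0.101. By LL genotype Irs2 differed by 0.03 ± 0.25 (adjusted P = 0.997) in males and -0.21 ± 0.21 (adjusted P = 0.72) in females.

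The markers of other cells also differed by sex. The summed level of 8 liver endothelial markers was 413 to 853 normalized counts in female PP and 224 to 394 in male PP mice, and 311 to 627 in female LL and 329 to 414 in male LL mice. For 8 stellate cell and fibroblast markers the sums were 711 to 988 in female PP, 299.5 to 616 in male PP, 428 to 946 in female LL and 532 to 867 in male LL mice. For 8 Kupffer cell and macrophage markers they were 902 to 1104 in PP females, 478 to 1232 in PP males, 531 to 869 in LL females and 453 to 759.6 in LL males. No gene of these 3 lists was at 0 in all libraries. Of the endothelial markers 4 of 8, of the tested stellate markers 3 of 7 and of the Kupffer cell markers 3 of 8 were called higher in females over both genotypes, against 10.7% of all genes called in either direction. By LL genotype the Kupffer cell list had a median log2 fold change of -0.62 in males and -0.43 in females, and 1 of its genes, Csf1r, the receptor of a macrophage growth factor, was called lower over both sexes (-0.61 ± 0.17, adjusted P = 0.0239), under 17 of 27 alternatives and by neither edgeR nor limma. Of the 7 tested hepatocyte markers 1, Alb, was called higher in females over both genotypes (0.63 ± 0.07, adjusted P = 3.14e-16). The median log2 fold change of that list was -0.11 in the same comparison. The part of these cells in the differences of Irs1, Irs2 and Pdk4 was not tested.

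Foxo1 (ENSMUSG00000044167, chromosome 3, 52175757 to 52260642, plus strand) and Foxo3 (ENSMUSG00000048756, chromosome 10, 42057837 to 42154007, minus strand) encode the forkhead factors, whose activity is set mainly by phosphorylation and location and only in part by transcript level. For Foxo1 in males the normalized counts were 112, 80.8, 125 and 122 in PP and 105, 104, 91.0 and 107 in LL mice. The females held 87.0, 75.5, 83.1, 53.4 and 156 in PP and 61.0, 68.2, 95.9, 87.6 and 93.0 in LL mice. Female PP 5, at 156, stood above the other 4 female PP mice at 53.4 to 87.0, and the male LL mice were the most even group. For Foxo3 in males the normalized counts were 154, 116, 183 and 144 in PP and 156, 106, 141 and 159 in LL mice. The females held 105, 105, 158, 90.6 and 155 in PP and 103, 129, 151, 164 and 114 in LL mice. The groups overlapped for both genes. By LL genotype Foxo1 differed by -0.11 ± 0.26 (adjusted P = 0.983) in males and -0.17 ± 0.23 (adjusted P = 0.818) in females, and Foxo3 by -0.09 ± 0.21 (adjusted P = 0.984) and 0.10 ± 0.19 (adjusted P = 0.88). Over both genotypes females were at -0.30 ± 0.17 (adjusted P = 0.267) for Foxo1 and -0.18 ± 0.14 (adjusted P = 0.439) for Foxo3. Across mice, as deviations from the group means, Foxo1 and Foxo3 had a Pearson r of 0.65 (18 mice).

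Igfbp1 (ENSMUSG00000020429, chromosome 11, 7147651 to 7152546, plus strand), a secreted binder of insulin-like growth factors whose gene insulin switches off, was with Pdk4 among the most variable members. In males the normalized counts were 75.2, 46.2, 20.7 and 62.1 in PP and 95.9, 54.0, 38.4 and 171 in LL mice. The females held 27.1, 12.7, 27.7, 42.6 and 253 in PP and 28.2, 29.6, 94.3, 27.1 and 47.1 in LL mice. A single mouse, female PP 5, held 253 normalized counts where the other 4 female PP mice held 12.7 to 42.6. The coefficient of variation was 140% in female PP mice with this library, 63.2% in LL females, 66.0% in LL males and 46.0% in PP males. The difference by LL genotype was 0.82 ± 0.79 (adjusted P = 0.907) in males and -0.68 ± 0.71 (adjusted P = 0.748) in females, and the interaction was -1.50 ± 1.06 (adjusted P = 0.964). Without female PP 5 the female value for Igfbp1 turned to 0.72 (adjusted P = 0.69) and the interaction was -0.096. Over both genotypes females differed from males by -0.23 ± 0.53 (adjusted P = 0.833), and without female PP 5 by -0.93 (adjusted P = 0.0409), so that 1 library set that value. None of the 31-base words of Igfbp1 transcripts occurred in another gene.

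Igfbp2 (ENSMUSG00000039323, chromosome 1, 72863606 to 72891634, plus strand) and Igfbp4 (ENSMUSG00000017493, chromosome 11, 98932064 to 98945218, plus strand), which encode the more abundant binding proteins of the liver, varied together across mice. For Igfbp2 in males the normalized counts were 1509, 1188, 806 and 1278 in PP and 616, 1077, 1117 and 991 in LL mice. The females held 1314, 1329, 1523, 1543 and 1562 in PP and 1363, 1149, 642, 3479.9 and 2171 in LL mice. The female LL mice spanned the widest range, from 642 in female LL 3 to 3479.9 in female LL 4, and the female PP mice were the tightest group. For Igfbp4 in males the normalized counts were 4856, 3898, 4004 and 4372 in PP and 3289, 4330.4, 4359 and 4930.5 in LL mice. The females held 4262, 3904, 3950.4, 4836 and 3896 in PP and 4598, 4340.0, 4049, 5919 and 6337 in LL mice. Female LL 4 and 5 were highest for both genes. As deviations from the group means the Pearson r between Igfbp2 and Igfbp4 was 0.79 (18 mice), the highest among pairs of members, and that of Pdk4 with Igfbp4 was -0.57, the lowest. For Igfbp2 the difference of female from male LL mice was 0.89 ± 0.32 (unadjusted p = 0.0056, adjusted P = 0.0673), which did not pass. It passed without female LL 2 (adjusted P = 0.0377) or female LL 3 (0.00269). Over both genotypes the difference was 0.59 ± 0.23 (adjusted P = 0.0606), and it passed without male PP 1 (0.0481), female LL 2 (0.0358) or female LL 3 (0.00386).

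Igfbp4 in female LL mice was 0.28 ± 0.14 (unadjusted p = 0.0457, adjusted P = 0.369) against female PP mice, which did not pass. This value for Igfbp4 turned to -0.20 with an offset for transcript length and to -0.34 on log2(TPM + 1). The fragment length of the libraries moved with genotype in females. It was 292 ± 52.1 bases in female LL and 448 ± 108 bases in PP females (SD, 5 mice a group, exact permutation p = 0.0159, two-sided). In males it was 407 ± 156 bases in LL and 518 ± 95.7 in PP males (SD, 4 mice a group, exact permutation p = 0.286). Across all genes the female log2 fold change by LL genotype had a Spearman rho of -0.37 with transcript length, against -0.09 in males. Of the 10 members 8 were longer than the median transcript of the tested genes, 2086 bases, the exceptions being Igfbp1 and Igfbp2. The part of fragment length in the members' differences was not tested beyond entering it as a term or an offset. Under both 0 members were called by genotype in either sex, as in the main fit, so these counts cannot show that part. In females fragment length was 247 to 377 bases in LL and 369 to 631 in PP mice, so a term for it largely overlaps with genotype.

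Pdk4 (ENSMUSG00000019577, chromosome 6, 5483097 to 5496339, minus strand) encodes the kinase that switches off pyruvate dehydrogenase in fasting and so spares glucose carbon. In males the normalized counts were 4.80, 5.25, 15.0 and 2.70 in PP and 37.6, 36.0, 26.8 and 2.16 in LL mice. The females held 13.6, 14.5, 19.3, 16.3 and 54.8 in PP and 20.0, 39.5, 246, 29.6 and 29.5 in LL mice. Of the 4 male LL mice 3 lay above all 4 male PP mice, and male LL 4, at 2.16, lay below them. In females, female LL 3 held 246 normalized counts, and the other 4 female LL mice lay between 20.0 and 39.5, above 4 of the 5 female PP mice and below female PP 5 at 54.8. The difference of LL from PP mice was 1.87 ± 0.91 (unadjusted p = 0.0398, adjusted P = 0.601) in males, 1.62 ± 0.77 (unadjusted p = 0.0362, adjusted P = 0.339) in females and 1.74 ± 0.60 (unadjusted p = 0.00347, adjusted P = 0.106) over both sexes. None of these passed the threshold. Without female LL 3 the female value for Pdk4 was 0.31 (adjusted P = 0.854). The last passed without male PP 3 (adjusted P = 0.0441) or male LL 4 (0.0403), and was 1.08 without female LL 3 (adjusted P = 0.178). The interaction of genotype with sex was -0.25 ± 1.19, with a 95% confidence interval of -2.59 to 2.09, and was -1.54 for Pdk4 without female LL 3.

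The difference of females from males in Pdk4 was 1.76 ± 0.86 (unadjusted p = 0.0412, adjusted P = 0.257) in PP mice, 1.51 ± 0.82 (adjusted P = 0.287) in LL mice and 1.64 ± 0.60 (adjusted P = 0.0424) over both genotypes. The last passed in 12 of the 25 alternatives with an adjusted P. It was lost for Pdk4 without female PP 3, female PP 4, female PP 5, male PP 1, male PP 2, male PP 4, female LL 3, male LL 3 or male LL 4 (adjusted P = 0.0512 to 0.112), and edgeR gave 0.0706. Without female LL 3 the value for Pdk4 was 0.99 over both genotypes and 0.22 (adjusted P = 0.88) in LL mice. Without female LL 1 or female LL 2, DESeq2 gave no adjusted P. In PP mice alone it passed without female LL 3 (adjusted P = 0.0468).

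Sesn1 (ENSMUSG00000038332, chromosome 10, 41685931 to 41784423, plus strand), a stress-induced inhibitor of the mTOR complex and a FOXO target, was at 18.8 to 40.9 normalized counts in the 18 mice. In males the normalized counts were 27.2, 40.9, 18.8 and 32.4 in PP and 33.7, 20.4, 29.4 and 33.5 in LL mice. The females held 37.5, 28.2, 32.7, 25.4 and 38.2 in PP and 29.1, 32.6, 39.03, 25.9 and 26.3 in LL mice. The groups overlapped throughout. The log2 fold change was -0.03 ± 0.28 (adjusted P = 0.998) by LL genotype in males and -0.08 ± 0.23 (adjusted P = 0.935) in females, and 0.10 ± 0.18 (adjusted P = 0.777) for females over males. Sesn1 shares 9.77% of its 31-base words with Cep57l1, an overlapping gene of the other strand, and whether the counting used strand is not given in the sources used here.

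Read mouse by mouse, 2 females stood out for the 10 members. Female PP 5 was the highest of its group for 8 of the 10 members, where it was the highest for 25.2% of all tested genes. The exceptions were Foxo3, where it came after female PP 3, and Igfbp4, where it was lowest. Of 27 tested genes of a list raised in fasted liver it was highest for 10 and lowest for 6, and of 21 genes raised in fed liver it was lowest for 10 and highest for 4. Female PP 5 was the lowest of its group for 24.2% of all tested genes. Female LL 3 was the highest of its group for 6 of the 10 members, against 20.8% of all genes, and the lowest for Igfbp2 and Igfbp4. It was highest for 13 and lowest for 5 of the 27 fasted-list genes, and highest for 7 and lowest for 4 of the 21 fed-list genes. Scd1, at 54012 normalized counts, was among those 7. Female LL 3 was the lowest of its group for 19.6% of all tested genes. The 2 mice differed in which marker led. Female PP 5 had an Igfbp1 of 253 and a Pdk4 of 54.8 normalized counts, female LL 3 an Igfbp1 of 94.3 and a Pdk4 of 246. Male LL 4 had the second highest Igfbp1 of all mice, 171, with the lowest Pdk4, 2.16. On the fasted and fed lists males had counts of like size. Of the 27 fasted-list genes male LL 2 was highest for 11 and male PP 4 for 10, while male PP 2 was lowest for 13. Male LL 4 was lowest for 12 of them and highest for 9 of the 21 fed-list genes. So the list counts do not set the 2 females apart.

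**Figure D4:**
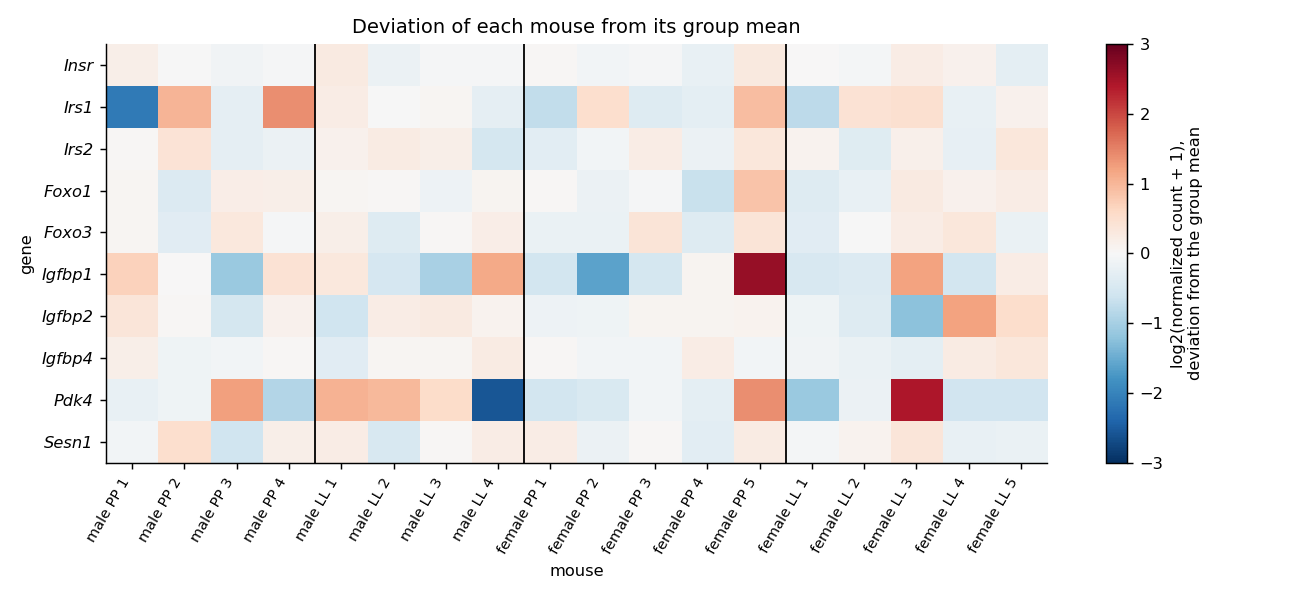
Deviation of each of 18 mice (horizontal axis) from its group mean for each gene (vertical axis), as log2(normalized count + 1), red above and blue below, with lines between the groups. The largest deviations are Igfbp1 in female PP 5 (2.62), Pdk4 in male LL 4 (-2.57) and Pdk4 in female LL 3 (2.44).

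Igfbp1 was set against the other 9 members within each sex, as 18 relations with Benjamini-Hochberg adjustment over them. No relation passed, and the lowest adjusted permutation p of a Pearson r was 0.388. In females the r of Igfbp1 with Foxo1 was 0.70 (permutation p = 0.0328, adjusted 0.388), with a Spearman rho of 0.41 (permutation p = 0.25, adjusted 0.81), and r was -0.10 without the 2 mice farthest from the median of Igfbp1, so it rests on those mice. With Pdk4 r was 0.66 in 10 females (permutation p = 0.063, adjusted 0.388), rho 0.66 (permutation p = 0.0443, adjusted 0.797) and r 0.38 without the 2 farthest mice. In 8 males r with Pdk4 was -0.37 (exact permutation p = 0.375, adjusted 0.676), rho -0.31 (exact permutation p = 0.462, adjusted 0.831) and r 0.02 without the 2 farthest. As deviations from the group means r with Pdk4 was -0.78 in males (exact permutation p = 0.0451, adjusted 0.406) and 0.75 in females (exact permutation p = 0.0125, adjusted 0.225). For these values mice were permuted only within their group.

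**Figure D5:**
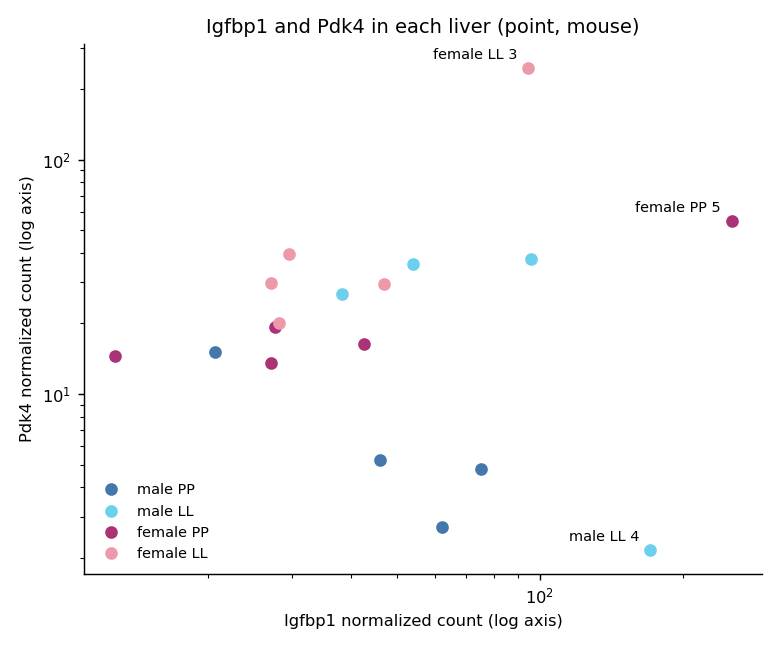
Normalized counts of Igfbp1 (horizontal) and Pdk4 (vertical), both on logarithmic axes, with 1 point a mouse coloured by group. Female LL 3 and female PP 5 stand at the top and right, and male LL 4 has an Igfbp1 of 171 with a Pdk4 of 2.16.

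Across mice, the median relation of Igfbp1 and of Pdk4 to the wider fasting lists lay near that to all genes. As deviations from the group means over 18 mice, Igfbp1 had a median Pearson r of 0.01 with 27 fasted-list genes and -0.15 with 21 fed-list genes, against 0.00 with all tested genes. For Pdk4, chosen as a second anchor after its values were seen, the medians were 0.01 and -0.01. Within the fasted list the r of Pdk4 ranged from -0.61 for Bcl6 to 0.73 for Acot1, an acyl-CoA thioesterase. Within the fed list it ranged from -0.90 for Mid1ip1, an activator of acetyl-CoA carboxylase, to 0.70 for Elovl6. Of the other lists, Pdk4 had a negative r with 8 of 10 clock output genes (median -0.43) and a positive r with all 3 tested genes of the opposite phase (median 0.41). Its r was negative with 5431 of all 10937 other tested genes. Igfbp1 had a positive r with 7 of the 10 clock output genes (median 0.145) and with 2 of the 3 (median 0.131). With 9 glucocorticoid and stress response genes the median r was 0.362 for Igfbp1 and -0.041 for Pdk4. With 47 insulin signalling genes it was 0.065 and 0.048. These correlations share libraries and depth and are descriptions.

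The genes most like Igfbp1 by the same measure, among 5645 genes whose mean reached 50 normalized counts, were Rnf144b (r = 0.87), Tnfrsf1b (0.76), Hmgn1 (0.74), Il6st (0.72) and Bmpr2 (0.72). Those most like Pdk4 were Prps1l3 (0.88), Hsd17b4 (0.88), the peroxisomal multifunctional enzyme, Arl4a (0.87), the chaperonin Hspd1 (0.87) and the lipid droplet protein Fitm2 (0.87).

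Of 47 tested genes of the insulin signalling chain beyond the members, 0 were called by LL genotype in males and 1, Foxk1, in females. The shares of all tested genes called were 0.274% in males and 0.558% in females. Foxk1, a forkhead factor that insulin sends into the nucleus, was at 41.7 ± 3.53 normalized counts in PP females and 22.6 ± 3.66 in LL females (SD, n = 5 each), a log2 fold change of -0.88 ± 0.25 (adjusted P = 0.0493), and passed under 9 of 28 alternatives, edgeR and limma not among them. Averaged over both sexes Foxk1 was at -0.65 ± 0.19 (adjusted P = 0.0473), and passed under 7 of 27. The median log2 fold change of the list was -0.11 in males and -0.16 in females, against 0.00 and 0.01 over all genes. Of 7 tested genes of the insulin-like growth factor axis 0 were called by genotype in either sex. Between the sexes over both genotypes 10.7% of all tested genes were called in either direction. Of the 47, 2 were higher in females and 0 lower, a smaller share than that of all genes. The 2 were Enpp1, a membrane protein that inhibits the insulin receptor (0.76 ± 0.13, adjusted P = 5.06e-07), and Socs2, a brake on growth hormone signalling (1.05 ± 0.27, adjusted P = 0.00161). Of the 7 growth factor axis genes 4 were higher in females, led by Igfals (0.84 ± 0.19, adjusted P = 0.000242) Igfbp3 (0.78 ± 0.19, adjusted P = 0.000729) and Igfbp7 (0.43 ± 0.15, adjusted P = 0.0269).

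By LL genotype 0.274% of all tested genes were called in males and 0.558% in females. Of the 27 tested genes of the fasted list 1 was called by LL genotype in males, Cyp4a14, a fatty acid hydroxylase driven by PPARα, at 3.98 ± 0.70 (adjusted P = 5.07e-05), and 0 in females. Its range was 10.5 to 153 normalized counts in male PP and 106 to 2486 in male LL mice, and the call held under 26 of 28 alternatives, all of them DESeq2 fits, and was lost with edgeR and with limma. Cyp4a14 was at 3642 to 6295 in PP females and 4222 to 7559.6 in LL females. It was called over both sexes (2.05 ± 0.47, adjusted P = 0.00407) under 24 of 27 alternatives, and not with edgeR, limma or fragment length as a term. For the interaction it was called (-3.87 ± 0.93, adjusted P = 0.046) under 9 of 27 alternatives and by neither edgeR nor limma. Of the 21 fed-list genes 1 was called in males, the desaturase Scd1, at 1.47 ± 0.35 (adjusted P = 0.00962), under 13 of 28 alternatives and by neither edgeR nor limma, and 0 in females. Male LL 4, the mouse with the lowest Pdk4, also had the lowest Cyp4a14 of the male LL group, 106 normalized counts. The sex difference over both genotypes was called for 10.7% of all tested genes in either direction. In that comparison 4 fasted-list genes were higher and 4 lower in females, with Cyp4a14 higher (4.16 ± 0.47, adjusted P = 6.39e-17) and Lpin1, a phosphatidate phosphatase, lower (-0.91 ± 0.21, adjusted P = 0.000252). Asns, the asparagine synthetase, was called lower in females (adjusted P = 7.49e-08), with 0 to 2.73 normalized counts in females and 1.199 to 134 in males. In the same comparison 9 fed-list genes were higher and 0 lower, led by Fasn, the fatty acid synthase (1.56 ± 0.14, adjusted P = 9.67e-25), Acacb (1.08 ± 0.19, adjusted P = 3.38e-07) and Acaca (0.66 ± 0.13, adjusted P = 1.07e-05).

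Of 9 tested glucocorticoid and stress response genes, and of 10 clock output genes and 3 of the opposite phase, 0 were called by LL genotype in either sex. The shares of all tested genes were 0.274% in males and 0.558% in females, and 10.7% for the sex difference over both genotypes. Over both genotypes females were higher in Sgk1, a kinase induced by glucocorticoids (0.70 ± 0.22, adjusted P = 0.0139), and in Fkbp5, a co-chaperone of the glucocorticoid receptor (0.49 ± 0.17, adjusted P = 0.0387), and of the 10 clock output genes Per3 was higher (0.56 ± 0.17, adjusted P = 0.0137) and Ciart (-0.83 ± 0.25, adjusted P = 0.0093) and Bhlhe41 (-1.13 ± 0.38, adjusted P = 0.0264) were lower.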

How the data were processed

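RNA from 18 livers was extracted with Trizol, cleaned on columns with DNase, and sequenced where the RNA integrity number exceeded 6. Reads passed FastQC and were not trimmed. The authors assigned them with Salmon (1.4.0 in the submitters' processing notes) to GENCODE M26 transcripts of GRCm39. The deposited tables hold, per transcript, the estimated count, which is not scaled between libraries, and the TPM, which the authors' Salmon run scaled to a common sum across libraries. Length and effective length (unit: bases) were also deposited by the authors, and the median difference of the 2 over transcripts of at least 3000 bases was taken as the fragment length.

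Transcripts were joined to genes through GENCODE M39, which held 137570 of 139225 transcripts and at least 99.76% of counts. Estimated counts were summed per gene and rounded, since 90.8% of positive values were not whole. DESeq2 1.42.0 in R 4.3.3 was fitted once over 18 libraries with the 4 groups as levels, as the study used DESeq2 with an adjusted P below 0.05 and a 30% change. Independent filtering was off. The averages over both sexes and over both genotypes, and Pdk4 as a second anchor for likeness, were added after seeing the data. Alternatives were trimmed-mean factors, edgeR 4.0.16, limma 3.58.1 on log2(TPM + 1), other filters and terms, and leaving out each library. The DESeq2 step was tested on simulated data. Libraries of a group differed by a chi-square per degree of freedom of 11.7 to 93.8, so none was counted as a repeat. Total counts limit the precision of Irs1, Pdk4 and Sesn1, which have low counts, and intervals cover the spread between mice.

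The members and lists were chosen with earlier results of these data known. All 10 members are named, with called genes of the 7 pathway lists (by genotype all, by sex at most 3, those with the smallest adjusted P over both genotypes) and the 5 genes most like Igfbp1. A further gene of the rule is not reported here. Genes named outside this rule (Csf1r, Alb, Bcl6, Acot1, Mid1ip1, Elovl6 and the genes most like Pdk4) were chosen after their values were seen. Permutation tests were two-sided. For correlations they used 100000 resamples for females and were exact for males. For deviations from the group means, mice were permuted only within their group, and the test was exact in both sexes.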

Additional observations from a re-analysis of the deposited data

Results flagged for a closer look

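In 4 of 44 groups of values (normalized counts of the members, and fragment lengths), 1 mouse stood farther from the rest than Dixon's test allows at the 95% level. A rate of about 1 group in 20 by chance holds for independent groups of normally distributed values. Here the counts were not log-transformed and the groups share mice, so that rate cannot be taken as the expectation. Igfbp1 in female PP 5 was at 253 normalized counts, with the other 4 mice at 12.7 to 42.6. Pdk4 in female PP 5 was at 54.8, with the others at 13.6 to 19.3. Pdk4 in female LL 3 was at 246, with the others at 20.0 to 39.5. Foxo1 in male LL 3 was at 91.0, below the other 3 mice at 104 to 107.
The difference by LL genotype differed between the sexes for Cyp4a14 (interaction -3.87 on the log2 scale, adjusted P = 0.046) and for the hepatocyte marker Alb (-0.61, adjusted P = 0.0443), by DESeq2's test of the interaction. Each passed under 9 of 27 alternatives, and with neither edgeR nor limma.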

How the results depend on the processing

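Of 1928 values of members under alternatives 130 changed sign, as did 10 values of the correlations of Igfbp1. Of these changes together, 136 were of values with no unadjusted p under 0.05 in either fit. By LL genotype within each sex and for the interaction, 0 members were called under every alternative. Females against males in PP gave 1 called member with age as a term (Irs1), where 6.74% of all genes were called. They gave 4 with limma on log2(TPM + 1) (Insr, Irs1, Irs2 and Sesn1), where 39.4% of all genes were called. A fit of only those groups gave 1 (Pdk4). In LL mice 1 member, Irs1, was called with age as a term and in a fit of only those groups. Over both genotypes 3 members became 1, Irs1, with no filter on low counts, with fragment length as a term or with the replicate block. They became 6 with limma on log2(TPM + 1). Shares of all genes for the counts in LL mice, over both genotypes and without 1 library are not given here. Such counts are therefore not read as results about the members. Leaving out each library in turn gave 0 to 1 called members for LL against PP over both sexes, 0 to 1 for females against males in PP and 0 to 1 in LL, and 1 to 3 over both genotypes. On the TPM scale the median of all genes shifted by 0.21 for LL against PP in males, -0.08 in females, and 0.50 and 0.20 for females against males in PP and in LL. The level of Igfbp4 was 178 TPM on protein-coding transcripts. Same-numbered mice had correlations of deviations of -0.169 to 0.159. Replicate numbers follow the order of age within each group, so the replicate block is in part a term for age. The replicate block changed no other count of called members. With fragment length as a term the turned values were, for LL against PP in males Insr 0.0098, Irs2 -0.043, Foxo3 0.043 and Sesn1 0.13, for LL against PP in females Sesn1 0.14, for females against males in LL Foxo3 0.08, for the interaction Sesn1 0.014, for LL against PP over both sexes Sesn1 0.14. With limma on log2(TPM + 1) the turned values were, for LL against PP in males Insr 0.29, Irs1 0.025, Foxo1 0.24, Foxo3 0.27 and Sesn1 0.19, for LL against PP in females Igfbp2 -0.36 and Igfbp4 -0.34, for females against males in PP Foxo1 0.34, Foxo3 0.41 and Igfbp4 0.47, for females against males in LL Insr 0.27, Foxo1 0.045 and Foxo3 0.28, for the interaction Irs1 -0.051, Foxo3 -0.14, Igfbp2 -0.24 and Igfbp4 -0.23, for LL against PP over both sexes Insr 0.049, Irs2 0.055, Foxo1 0.092, Igfbp4 -0.23 and Sesn1 0.066, for females against males over both genotypes Foxo1 0.19 and Foxo3 0.34. With age as a term the turned values were, for LL against PP in males Irs2 -0.0023, for LL against PP over both sexes Foxo3 -0.065 and Igfbp1 -0.30. With the transcript length offset the turned values were, for LL against PP in males Foxo1 0.061 and Foxo3 0.02, for LL against PP in females Irs1 0.011, Igfbp2 -0.10, Igfbp4 -0.20 and Sesn1 0.035, for females against males in LL Insr 0.0019, Foxo3 0.068 and Igfbp4 -0.11, for the interaction Sesn1 0.043, for LL against PP over both sexes Irs2 0.051, Foxo1 0.014, Igfbp4 -0.30 and Sesn1 0.013, for females against males over both genotypes Igfbp4 -0.21. With the replicate block the turned values were, for LL against PP in females Igfbp1 0.25, for females against males in PP Igfbp1 -0.68, for females against males over both genotypes Insr -0.0016. With trimmed-mean factors the turned values were, for LL against PP over both sexes Foxo3 -0.00016. On log2(TPM + 1) the r of Igfbp1 was 0.23 with Irs1 in males, 0.19 with Irs2 in males, 0.42 with Foxo1 in males, 0.45 with Foxo3 in males, 0.31 with Igfbp2 in males, 0.12 with Pdk4 in males and 0.52 with Igfbp4 in females. As deviations from group means the r of Igfbp1 was 0.094 with Foxo1 in males, 0.088 with Foxo3 in males and 0.23 with Igfbp2 in males. Leaving out each library in turn, the values that changed sign ranged, for LL against PP in males Insr -0.10 to 0.05, Irs1 -0.71 to 0.11, Irs2 -0.064 to 0.20, Foxo3 -0.19 to 0.027, Igfbp4 -0.10 to 0.084 and Sesn1 -0.21 to 0.17, for LL against PP in females Irs1 -0.27 to 0.20, Foxo1 -0.32 to 0.11, Igfbp1 -1.14 to 0.72 and Igfbp2 -0.13 to 0.49, for females against males in PP Insr -0.036 to 0.10, Igfbp1 -0.88 to 0.79, Igfbp4 -0.10 to 0.026 and Sesn1 -0.059 to 0.32, for females against males in LL Insr -0.10 to 0.052 and Sesn1 -0.056 to 0.15, for the interaction Insr -0.14 to 0.0073, Irs1 -0.22 to 0.60, Foxo1 -0.20 to 0.23, Pdk4 -1.54 to 0.33 and Sesn1 -0.24 to 0.14, for LL against PP over both sexes Foxo3 -0.045 to 0.066, Igfbp1 -0.19 to 0.77, Igfbp2 -0.23 to 0.079 and Sesn1 -0.14 to 0.044, for females against males over both genotypes Insr -0.036 to 0.048 and Igfbp1 -0.93 to 0.024. Irs1, Pdk4 and Sesn1 have low counts, and differences as small as the point estimates of most members were not detectable with 4 or 5 mice a group. The cause of these changes was not tested.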
